A study of Mus musculus with 6 samples.

Results

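The mitosis, kinetochore and spindle genes examined here are 50 genes chosen by name: mitotic cyclins and their kinase control, spindle checkpoint, centromere and kinetochore proteins, condensin, spindle assembly and cytokinesis factors, and a pair of transcription factors of the late cell cycle. Kinesins listed under a Kif symbol and the polo-like kinases were not among them. All 50 were found by gene symbol among the 38924 gene rows of the deposited table, and all 50 had enough reads to be tested. The samples were naive CD4+ T cells from spleens of C57 BL/6 mice, cultured for 72 h under Th17 conditions, that is with TGFb1, IL-6 and IL-23 and with antibodies to CD3 and CD28. The control group of 3 cultures received the solvent DMSO, and the treated group of 3 cultures received CX-4945, a small-molecule inhibitor of protein kinase CK2, at a dose that the labels give as 2 mM (the unit could not be checked). The question put to the mitosis genes was whether their RNA differed between Th17 cultures with and without the CK2 inhibitor. Whether the replicate cultures came from separate mice is not stated beyond the word biological, and p-values therefore cover only the spread among these 6 libraries.

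Of all genes tested, 30.6% rose and 31.3% fell with CX-4945. All 50 mitosis genes rose, and none fell. Their median change was 0.86 on the log2 scale, a 1.82-fold rise, while the median over all 12502 genes tested was -0.0029. The changes ran from 0.25 for Pttg1, which encodes securin, to 1.19 for Racgap1, which encodes a subunit of the centralspindlin complex that positions the cleavage furrow. At least 2-fold higher were 16 genes, among them Ccna2, Ccnb1, Ccnb2, Foxm1, Cdc20, Top2a and Mki67. A further 29 rose between 1.5-fold and 2-fold, and 5 (Cdc25b, Aurkb, Bub1, Cenpa and Pttg1) rose by less than 1.5-fold. Over all tested genes, 4.22% rose by at least 2-fold and 11.2% by at least 1.5-fold.

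Entry into mitosis is driven by Cdk1 bound to cyclin A and cyclin B, and exit follows when the anaphase-promoting complex (APC/C) with its activator Cdc20 marks cyclin B and securin for destruction. In between, kinetochores assemble on centromeres and capture spindle microtubules, and the spindle checkpoint holds back the APC/C until every chromosome is attached. The genes of this programme are transcribed mostly in G2 and mitosis, and activated T cells divide rapidly, so their RNA is a common measure of proliferation in such cultures.

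The levels below are CPM values, that is a gene's uniquely placed exon reads scaled to a common library total after TMM normalisation, and the changes are log2 fold changes of CX-4945 over DMSO with their standard error (SE). Tests were edgeR's quasi-likelihood F test with Benjamini-Hochberg adjustment over the 12502 genes, two-sided, and a gene rose or fell where its adjusted p was under 0.05. By that rule 30.6% of all tested genes rose and 31.3% fell, so a call alone separates a gene little from the background. A rise of at least 2-fold, met by 16 of the 50 mitosis genes, was met by 4.22% of all tested genes, and one of at least 1.5-fold, met by 45, by 11.2%. In a test against a minimum fold of 1.5, 40 members passed, against 5.29% of all genes; the 10 that did not were Cdc25b, Cdc25c, Wee1, Aurkb, Bub1, Bub3, Pttg1, Cenpa, Cenpk and Ncapg. For all 50 genes the lowest CX-4945 library lay above the highest DMSO library, which held for 35% of all tested genes. As the change of every member was positive, none could be called lower at any p threshold. DESeq2 likewise called none lower. Gene positions are those of the deposited table, on mm10. Libraries held 22178614 to 26148189 uniquely placed exon reads. In bulk samples a larger share of dividing cells and more of this RNA per dividing cell cannot be told apart.

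**Figure D1:**
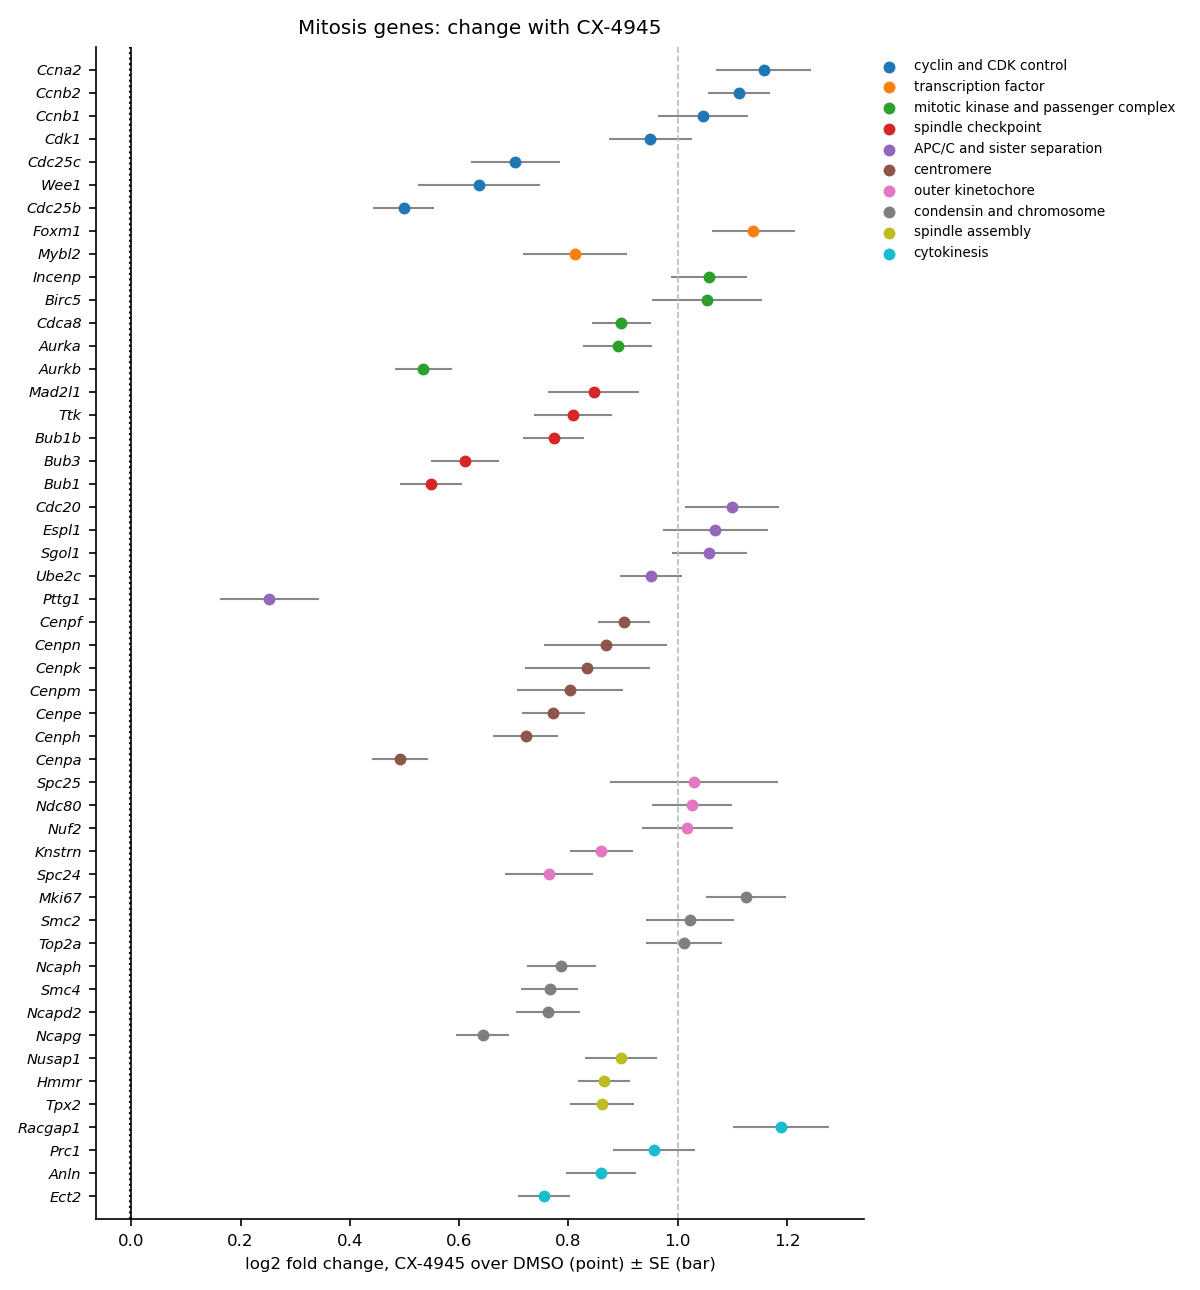
Change of each of the 50 mitosis genes, grouped by role (colour) and sorted within each role. Points are log2 fold changes of CX-4945 over DMSO (3 libraries each), bars are ± SE, the dashed line marks a 2-fold rise and the dotted line, almost on 0, the median of all 12502 genes tested. Every point lies to the right of 0, from 0.25 (Pttg1) to 1.19 (Racgap1).

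The libraries of a group stood close together in these genes. Summed over the 50 genes, DMSO libraries 1, 3 and 5 (numbers as in the deposited table) held 5939, 6605 and 5859 CPM, and CX-4945 libraries 2, 4 and 6 held 11704, 11952 and 11379 CPM. DMSO library 3 was the highest of its group for 39 of the 50 genes, and CX-4945 library 4 the highest of its group for 33. DMSO library 5 was the lowest of its group for 28 genes, and CX-4945 library 6 for 34. Whether libraries with neighbouring numbers were prepared together is not stated, and a shared effect was not tested. The coefficient of variation between libraries had a median of 7.85% in DMSO and 3.29% with CX-4945, and it was larger in DMSO for 46 genes. No such value over all genes is given, so the wider DMSO spread cannot be read as particular to the mitosis genes. Across the 50 genes the size of the change was only weakly related to the level per kilobase of exon in DMSO (Pearson's r 0.19, Spearman's rho 0.19, over genes of the same 6 libraries, given as a description). The 50 genes lie on 16 chromosomes. Per kilobase of exon, Top2a had the highest level in both groups, with 96.4 CPM per kilobase in DMSO and 194 with CX-4945. Cenpk had the lowest level in DMSO on that scale, 4.24 CPM per kilobase, against 7.56 with CX-4945.

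**Figure D2:**
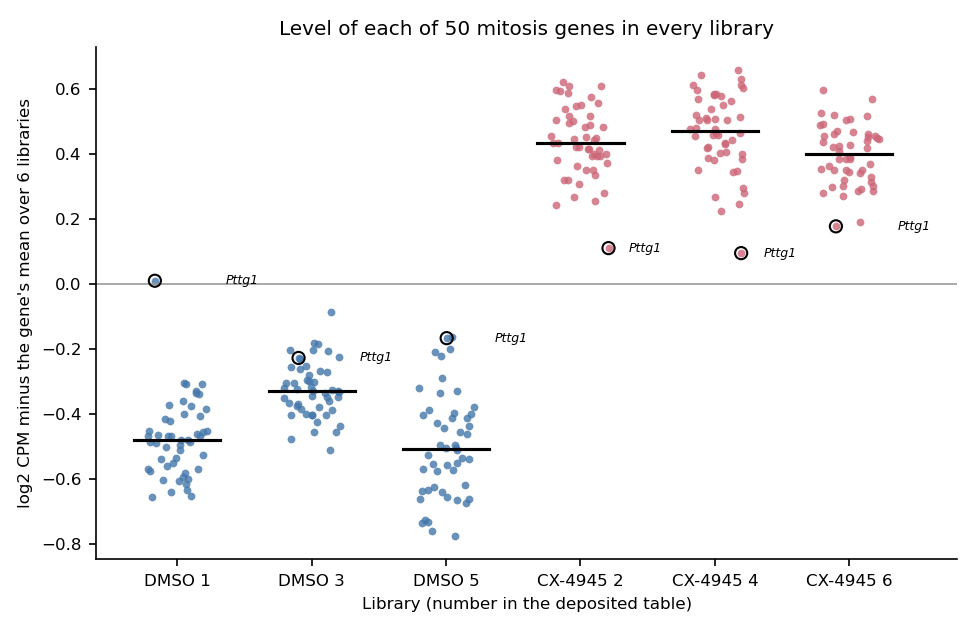
Level of each of the 50 mitosis genes in every library, as log2 CPM minus the gene's mean over the 6 libraries; points are genes, black bars are medians, and circles mark Pttg1. The median lies at -0.48, -0.33 and -0.51 in DMSO libraries 1, 3 and 5 and at 0.43, 0.47 and 0.40 in CX-4945 libraries 2, 4 and 6, with Pttg1 nearest to 0 in all 3 CX-4945 libraries.

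The start regions of 6 members are shown to set genes with and without known cell cycle promoter letters side by side: Racgap1 (1.19), Ccnb2 (1.11), Cdc20 (1.10) and Cdk1 (0.95), which hold CHR and CCAAT letters, and Birc5 (1.05) and Pttg1 (0.25), which hold neither. The 6 genes do not sample the range evenly, as none has a change between 0.25 and 0.95. They were picked after their changes and motif positions were seen. Each runs 5′ to 3′ from 220 bases before to 20 bases after the transcription start, from RefSeq on GRCm38.p6. Capitals mark TTTGAA or TTCGAA on either strand, the letters of the cell cycle genes homology region (CHR) that the DREAM and MuvB complexes are known to bind, and CCAAT on either strand, the box known to bind NF-Y.
Racgap1 (chr15:99651637-99651876, minus strand): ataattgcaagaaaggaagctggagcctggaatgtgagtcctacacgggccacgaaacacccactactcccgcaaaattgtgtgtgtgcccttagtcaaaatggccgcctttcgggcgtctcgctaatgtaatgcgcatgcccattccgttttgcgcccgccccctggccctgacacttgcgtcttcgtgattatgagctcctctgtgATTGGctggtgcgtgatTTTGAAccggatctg
Ccnb2 (chr9:70421535-70421774, minus strand): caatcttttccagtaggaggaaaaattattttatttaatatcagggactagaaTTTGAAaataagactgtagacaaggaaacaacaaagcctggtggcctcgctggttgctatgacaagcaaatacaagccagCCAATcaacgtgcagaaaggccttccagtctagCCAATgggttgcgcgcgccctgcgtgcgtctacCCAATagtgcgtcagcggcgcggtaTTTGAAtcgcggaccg
Cdc20 (chr4:118437324-118437563, minus strand): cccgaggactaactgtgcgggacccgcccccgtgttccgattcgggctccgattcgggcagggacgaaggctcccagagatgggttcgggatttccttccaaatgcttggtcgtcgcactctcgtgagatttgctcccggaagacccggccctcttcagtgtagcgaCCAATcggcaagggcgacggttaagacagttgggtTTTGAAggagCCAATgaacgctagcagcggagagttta
Cdk1 (chr10:69352893-69353132, minus strand): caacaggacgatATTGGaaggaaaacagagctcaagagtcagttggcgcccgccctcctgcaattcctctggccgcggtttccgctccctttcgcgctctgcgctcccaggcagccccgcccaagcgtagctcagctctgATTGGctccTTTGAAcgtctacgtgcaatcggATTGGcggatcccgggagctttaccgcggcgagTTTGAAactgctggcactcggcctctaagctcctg
Birc5 (chr11:117849017-117849256, plus strand): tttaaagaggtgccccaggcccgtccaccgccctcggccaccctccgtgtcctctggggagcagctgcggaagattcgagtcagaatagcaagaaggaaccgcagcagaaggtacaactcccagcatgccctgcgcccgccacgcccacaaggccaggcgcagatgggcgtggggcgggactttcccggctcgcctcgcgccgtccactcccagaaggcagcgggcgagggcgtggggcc
Pttg1 (chr11:43425962-43426201, minus strand): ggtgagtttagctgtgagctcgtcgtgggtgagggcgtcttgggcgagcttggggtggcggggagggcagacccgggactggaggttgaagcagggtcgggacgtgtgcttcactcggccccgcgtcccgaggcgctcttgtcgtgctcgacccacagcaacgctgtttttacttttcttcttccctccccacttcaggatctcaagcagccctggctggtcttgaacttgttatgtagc
Racgap1 holds CHR letters at position 6, counted from 1 at the start with no position 0, and an inverted CCAAT box at -12. In Ccnb2 the CHR letters stand at -167 and 5, with CCAAT boxes at -87, -54 and -21. Cdc20 has CHR letters at -18 and CCAAT boxes at -53 and -8, and Cdk1 has CHR letters at -71 and -15 and CCAAT boxes at -208, -80 and -48. Birc5 and Pttg1, the member that rose least, have neither in the whole window from 250 before to 50 after the start. The other members with neither are Nuf2 (1.02), Nusap1 (0.90), Knstrn (0.86), Mad2l1 (0.85), Mybl2 (0.81) and Ncaph (0.79). The RefSeq start used for Pttg1 lies inside the gene's span in the deposited table (chr11:43420250-43426251), so that window does not begin where the counted gene does. Pttg1 is not alone in this, as the windows of Cdca8 (chr4:124936868-124937167) and Cenpm (chr15:82244287-82244586) also lie wholly inside their gene's span. All such windows were kept in the counts that follow.

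RefSeq windows from 250 bases before to 50 after the start were given for 40 of the 50 members, in 45 windows. CHR letters (TTTGAA or TTCGAA, the second its own reverse complement) occurred in 28 of the 40 genes, or 70.0%, against 21.7% of 27025 genes with a window and 15.9% of the 9207 of them that were tested. Within 50 bases of the start they occurred in 25 of the 40 members, or 62.5%, against 6.12% of all genes and 4.31% of those tested. CCAAT on either strand occurred in 75.0% of the members, in 41.1% of all genes and in 43.2% of those tested. E2F-like letters (TTCCCGC or TTGGCGC, either strand, the second of which can share bases with an inverted CCAAT box) occurred in 27.5% of the members, 7.79% of all genes and 14.3% of those tested. A match of letters is a description, and it does not show that a factor binds there. Among the members, the median log2 fold change was 0.89 for the 28 genes with them and 0.84 for the 12 without. Over all tested genes with a window the medians were 0.04 with and 0.00 without CHR letters anywhere, and 0.20 with and 0.00 without CHR letters within 50 bases of the start. The motifs and the distance of 50 bases were chosen with results of these data known.

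**Figure D3:**
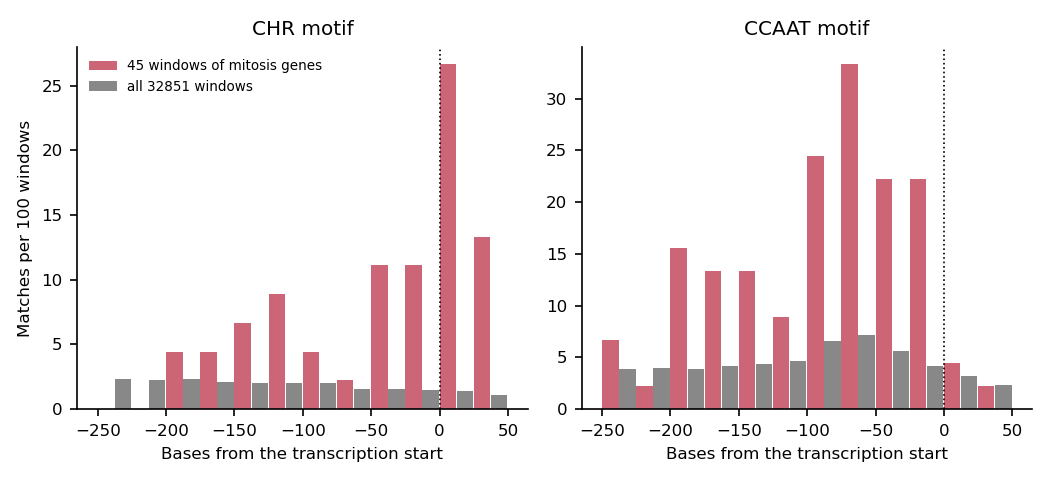
Positions of CHR (left) and CCAAT (right) letters around the transcription start in 45 windows of the mitosis genes (red) and in all 32851 windows (grey). Each 25-base bin holds a red bar beside a grey bar, whose heights are matches per 100 windows. The CHR letters of the mitosis genes are most frequent in the 25 bases from the start onward (26.7 per 100 windows), and the CCAAT letters between 75 and 50 bases before it (33.3 per 100 windows).

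Of the 7 genes of cyclin and Cdk1 control, all 7 rose, with a median change of 0.95. The counts of this and the following role groups stand beside 30.6% of all tested genes that rose. Ccna2 (cyclin A2; chr3:36564866-36572150) had the highest level and the largest change of the group, with 137, 155 and 122 CPM in DMSO libraries 1, 3 and 5 and 311, 319 and 294 CPM in CX-4945 libraries 2, 4 and 6. The lowest CX-4945 library was far above the highest DMSO library, and the change was 1.16 ± 0.09 (SE; edgeR adjusted p = 3.23e-05). Ccnb2 (cyclin B2; chr9:70407689-70421554) went from 83.6 ± 4.26 to 181 ± 6.07 CPM (SD, n = 3 each), and Ccnb1 (cyclin B1) from 45.4 ± 5.01 to 93.9 ± 4.27 CPM. Both cyclin B genes rose by nearly the same factor, with changes of 1.11 ± 0.06 and 1.05 ± 0.08 (SE). Reads of Ccnb1 that also fit another locus are not counted here. The authors' deposited table gives Ccnb1 as 2.13 times higher with CX-4945 by group mean, taken here as RPKM, beside a 2.06-fold rise in unique reads. That is 1.03 times the unique-read fold, the smallest such factor of the members, whose median was 1.07. In DMSO the authors' mean RPKM of Ccnb1 was 18.6, beside 10.8 unique CPM per kilobase of exon, and that of Ccnb2 was 35.7, beside 54.2. How many Ccnb1 reads were left out was not tested. Cdk1, the kinase that these cyclins activate, stood at 83.7, 92.2 and 74.4 CPM in DMSO and at 162, 161 and 160.3 CPM with CX-4945. Its 3 CX-4945 libraries were almost identical and lay well above the DMSO libraries (0.95 ± 0.08).

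Among enzymes that switch Cdk1 on and off, the members Cdc25b, Cdc25c and Wee1 had smaller changes than the cyclins, a difference that was not tested. Cdc25b, a phosphatase that activates Cdk1, had the smallest change of this group, with 120.3, 126 and 135 CPM in DMSO and 179, 177 and 183 CPM with CX-4945 (0.50 ± 0.06; edgeR adjusted p = 0.000155). The groups did not overlap, although here DMSO library 5 rather than 3 was the highest control. Its relative Cdc25c changed by 0.70 ± 0.08 and Wee1, a kinase that inhibits Cdk1, by 0.64 ± 0.11. Pkmyt1, another kinase that inhibits Cdk1, was not a member and rose by 0.92 ± 0.09. The log2 ratio of Cdk1 to Wee1 reads was 2.63 ± 0.08 (SD) in DMSO and 2.93 ± 0.02 with CX-4945, with no overlap between the groups. The ratio of Ccnb1 to Ccnb2 was -0.88 ± 0.09 and -0.94 ± 0.02, with groups that overlapped. These ratios and those given below compare reads of gene pairs picked after their values were seen, and are given as descriptions with no test.

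Both transcription factors rose. Foxm1 (chr6:128362967-128375893), the forkhead factor that activates late cell cycle genes, had 74.0, 88.1 and 73.5 CPM in DMSO and 176, 167 and 176 CPM with CX-4945. Every CX-4945 library was above every DMSO library, and the change was 1.14 ± 0.08 (edgeR adjusted p = 2.26e-05). Mybl2 (B-Myb), which joins the MuvB complex in S phase, had 61.3, 76.3 and 58.9 CPM in DMSO and 118, 110.2 and 117 CPM with CX-4945. Its groups were also apart, and its change of 0.81 ± 0.09 was smaller than that of Foxm1. Of other MuvB subunits, which were not members, Lin9 rose by 1.10 ± 0.11, Lin54 by 0.25 ± 0.08 and Lin37 by 0.20 ± 0.07, while Lin52 (0.35 ± 0.20, adjusted p = 0.157) did not pass.

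The chromosomal passenger complex joins the kinase Aurkb to its scaffold Incenp and to Birc5 (survivin) and Cdca8 (borealin), and corrects faulty attachments at the centromere. Its 4 RNAs rose by 0.53 to 1.06. Incenp (chr19:9872297-9899533) had 179.9, 205 and 171 CPM in DMSO and 389.9, 388 and 379 CPM with CX-4945, a change of 1.06 ± 0.07 (edgeR adjusted p = 2.23e-05). Aurkb (chr11:69045647-69051664) had 139.8, 146 and 153 CPM in DMSO and 212, 209 and 215 CPM with CX-4945, a change of 0.53 ± 0.05 (edgeR adjusted p = 8.01e-05). For both genes the groups were apart, but the CX-4945 libraries of Aurkb stood closer to its controls. The log2 ratio of Incenp to Aurkb reads was 0.34 ± 0.17 (SD) in DMSO and 0.86 ± 0.04 with CX-4945, with no overlap. Birc5 rose by 1.05 ± 0.10 and Cdca8 by 0.90 ± 0.05. Aurka, the kinase of the spindle poles, went from 66.7 ± 5.22 to 124 ± 1.02 CPM (SD), a change of 0.89 ± 0.06. Aurka over Aurkb gave a log2 ratio of -1.14 ± 0.12 in DMSO and -0.78 ± 0.03 with CX-4945, again with no overlap.

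The 5 spindle checkpoint genes rose with a median of 0.77, and none of them reached 2-fold. Bub1b (BubR1; chr2:118598211-118641591), the most abundant, had 137, 154 and 143 CPM in DMSO and 245, 253 and 244 CPM with CX-4945 (0.77 ± 0.06; edgeR adjusted p = 2.91e-05). Mad2l1 (Mad2), which with Bub1b and Bub3 holds Cdc20 inactive, had the largest change, with 57.2, 68.5 and 57.3 CPM in DMSO and 109, 117 and 104 CPM with CX-4945 (0.85 ± 0.08). The kinase Bub1 had the smallest, with 69.9, 77.3 and 77.8 CPM against 108, 110.1 and 111 CPM (0.55 ± 0.06). In all 3 genes the DMSO and CX-4945 libraries were clearly apart. Ttk (Mps1), the kinase at the top of the checkpoint, rose by 0.81 ± 0.07. The log2 ratio of Bub1b to Bub1 was 0.95 ± 0.06 (SD) in DMSO and 1.17 ± 0.03 with CX-4945, with no overlap.

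Bub3, which carries Bub1 and Bub1b to kinetochores, went from 33.8 ± 2.17 to 51.7 ± 0.428 CPM (SD, n = 3 each), a change of 0.61 ± 0.06, or 1.53-fold. It was the member for which the authors' deposited table differed most. In that table the mean RPKM of all 50 members was higher with CX-4945, with ratios from 1.28 to 2.44 and a median of 1.95. These ratios in the authors' deposited table were 1.07 times the folds from unique reads at the median, and between 1.03 and 1.09 times for the other 49 members, but 1.39 times for Bub3, which the table gives as 2.12 times higher. The cause of that gap was not tested.

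Among the genes of the APC/C and of sister chromatid separation, 4 rose by close to 2-fold or more and Pttg1 by far less. Ube2c (chr2:164769898-164778822), the ubiquitin-conjugating enzyme of the APC/C, had the highest level, with 135, 139.8 and 124 CPM in DMSO and 253, 262 and 255 CPM with CX-4945 (0.95 ± 0.06). Cdc20 (chr4:118432901-118437352), the APC/C activator that the checkpoint restrains, had the largest change, with 100.2, 113 and 88.5 CPM in DMSO and 221, 219 and 207 CPM with CX-4945 (1.10 ± 0.09; edgeR adjusted p = 3.61e-05). The CX-4945 libraries of both lay well above all DMSO libraries. Espl1 (separase), the protease that opens cohesin, rose by 1.07 ± 0.10 and Sgol1 (shugoshin), which protects cohesin at centromeres, by 1.06 ± 0.07.

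Pttg1 (chr11:43420250-43426251), which encodes the securin that holds separase inactive, had 14.7, 12.4 and 13.0 CPM in DMSO and 15.7, 15.6 and 16.5 CPM with CX-4945. The groups did not overlap, but DMSO library 1 lay close under the CX-4945 libraries. Its change of 0.25 ± 0.09 had the largest adjusted p of the 50 genes (0.0377, edgeR), the next largest being 0.00143 for Wee1. The call was lost with DESeq2, with no filter on low counts, against a minimum fold of 1.5 and when any library other than DMSO library 1 was left out, where the largest adjusted p was 0.106. The log2 ratio of Racgap1 to Pttg1 was 3.47 ± 0.26 (SD) in DMSO and 4.41 ± 0.11 with CX-4945, with no overlap.

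All 7 centromere genes rose, beside 30.6% of all tested genes, and their median change was 0.80. Cenpa (chr5:30666777-30674827), the histone H3 variant that marks the centromere, changed least, with 150.1, 158 and 160.3 CPM in DMSO and 225, 223 and 211 CPM with CX-4945 (0.49 ± 0.05; edgeR adjusted p = 0.000112). Cenpf (chr1:189640599-189688086), a large protein of the outer kinetochore that accumulates in G2, changed most and had the highest mean level of the group over the 6 libraries, with 137, 136 and 137 CPM in DMSO and 250.2, 266 and 250.2 CPM with CX-4945 (0.90 ± 0.05). For both genes the groups were far apart. The log2 ratio of Cenpa to Cenpf was 0.19 ± 0.05 (SD) in DMSO and -0.22 ± 0.05 with CX-4945, so the gene with more reads differed between the groups. Cenpe, the motor protein that moves chromosomes to the spindle equator, rose by 0.77 ± 0.06. Cenph, Cenpk, Cenpm and Cenpn, subunits of the inner kinetochore network that sits on Cenpa, rose by 0.72, 0.83, 0.80 and 0.87 from DMSO levels of 7.75 to 24.7 CPM.

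The Ndc80 complex is the microtubule coupler of the outer kinetochore and holds equal numbers of Ndc80, Nuf2, Spc24 and Spc25. Its first pair, Ndc80 and Nuf2, rose by 1.03 ± 0.07 and 1.02 ± 0.08, from 50.1 and 50.6 CPM to 102 CPM each. Spc25 (chr2:69193895-69206194) had the largest change of the outer kinetochore and the widest spread, with 25.9, 34.7 and 23.1 CPM in DMSO and 60.8, 61.7 and 48.6 CPM with CX-4945 (1.03 ± 0.15; edgeR adjusted p = 0.000624). Its partner Spc24 (chr9:21755442-21760286) had the smallest, with 31.2, 37.9 and 31.8 CPM in DMSO and 57.7, 57.9 and 55.8 CPM with CX-4945 (0.76 ± 0.08). The groups of both genes were apart, with CX-4945 library 6 lowest in each. Ndc80 over Spc24 gave a log2 ratio of 0.58 ± 0.05 (SD) in DMSO and 0.84 ± 0.02 with CX-4945, with no overlap. Knstrn, which binds both kinetochores and spindle microtubules, was the most abundant of the group, with 67.8, 70.1 and 76.1 CPM against 128, 133 and 128 CPM (0.86 ± 0.06).

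Top2a and Mki67 had the highest CPM of all 50 genes. Top2a (chr11:98992943-99024189), the topoisomerase that untangles sister DNA, had 836, 942 and 829 CPM in DMSO and 1766, 1821 and 1671 CPM with CX-4945 (1.01 ± 0.07; edgeR adjusted p = 2.46e-05). Mki67 (chr7:135689788-135716379), which coats mitotic chromosomes as the proliferation antigen Ki-67, had 768, 864 and 726 CPM in DMSO and 1726, 1754 and 1661 CPM with CX-4945 (1.12 ± 0.07; adjusted p = 2.19e-05 in the same edgeR fit). In both the CX-4945 libraries lay near one another and far above the controls.

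Condensin I is the ring that compacts mitotic chromosomes, and its 5 subunits rose. Smc2, one arm of the ring, rose by 1.02 ± 0.08 and Smc4, the other arm, by 0.77 ± 0.05. The subunits particular to condensin I, Ncaph, Ncapd2 and Ncapg, rose by 0.79 ± 0.06, 0.76 ± 0.06 and 0.64 ± 0.05. Ncapg (chr5:45669922-45700544) had the smallest change among the chromosome genes, with 94.5, 99.0 and 100.1 CPM in DMSO and 153, 156 and 149.6 CPM with CX-4945. Its groups were apart with little spread within either. Smc2 over Ncapg, the subunits with the largest and the smallest change, gave a log2 ratio of 0.79 ± 0.16 (SD) in DMSO and 1.17 ± 0.03 with CX-4945, with no overlap; the pair was picked after its values were seen.

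The 3 spindle assembly genes rose by 0.86 to 0.90. Tpx2 (chr2:152847964-152895321), which activates Aurka on microtubules, had 185, 205 and 180.4 CPM in DMSO and 341, 351 and 343 CPM with CX-4945 (0.86 ± 0.06). Nusap1, which bundles spindle microtubules, had 109.8, 121 and 104 CPM in DMSO and 204, 216 and 203 CPM with CX-4945 (0.90 ± 0.07). Hmmr, a spindle protein that works with Tpx2, went from 83.3 ± 1.89 to 152 ± 3.85 CPM (SD) and changed by 0.86 ± 0.05. All of them kept the groups well apart.

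The 4 cytokinesis genes rose with a median of 0.91. Racgap1 (chr15:99620496-99651656) had 142, 169 and 134 CPM in DMSO and 339.9, 352 and 321 CPM with CX-4945, the largest change of the 50 genes (1.19 ± 0.09; edgeR adjusted p = 3.06e-05). Ect2 (chr3:27097222-27153878), the exchange factor that Racgap1 brings to the midzone to activate RhoA, had 61.4, 63.7 and 62.0 CPM in DMSO and 105, 107 and 103 CPM with CX-4945, the smallest change of the group (0.75 ± 0.05). Neither gene's groups overlapped. Prc1, which bundles midzone microtubules, rose by 0.96 ± 0.07 and Anln (anillin), a scaffold of the contractile ring, by 0.86 ± 0.06.

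Several members share their place in the genome with another gene. Of the 50, 21 overlap another gene in the deposited table, 15 of them one on the opposite strand by its span. The strand setting of the counts is not given, so reads that fall in exon bases shared by both genes of a pair on opposite strands cannot be told apart. Ncapg overlaps Lcorl, which did not pass (0.18 ± 0.16, edgeR adjusted p = 0.359), and Cdc20 overlaps Elovl1, which did not pass either (0.07 ± 0.08, edgeR adjusted p = 0.457). Ccna2 overlaps Exosc9, which rose from 36.9 to 54.8 CPM (0.57 ± 0.07), a smaller change than that of Ccna2. Nusap1, which rose by 0.90 ± 0.07, overlaps Oip5, which rose by 0.74 ± 0.08. These neighbours were named after their values were seen, and those of other overlapping members are not given. The part of shared reads in the changes was not tested. The 29 members that overlap no other gene rose, which follows from the rise of all 50 and does not test an effect of overlap.

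Other genes of mitosis, from lists that hold no member, mostly rose as well. Of 107 such genes, 105 were tested, and of these 88 rose, none fell and 17 did not pass, with a median change of 0.64. The share over all tested genes was 30.6% that rose and 31.3% that fell. Among other kinetochore and centromere genes, 26 of 27 rose with a median of 0.72, led by Trip13 (1.27 ± 0.11), which takes apart the checkpoint complex, and Ska1 (1.22 ± 0.10), which helps Ndc80 hold microtubules. The smallest rises there were those of Zwint (0.27 ± 0.06) and Cenpp (0.33 ± 0.10). Hjurp, the chaperone that loads Cenpa, did not pass, with 714 ± 79.6 CPM (SD) in DMSO and 794 ± 40.7 CPM with CX-4945. Among other spindle and centrosome genes 25 of 27 rose (median 0.77), with Nek2 (1.23 ± 0.08) and Gtse1 (1.21 ± 0.08) highest and Haus2 and Ckap5 (both 0.34) lowest, and Numa1 and Haus8 not passing. Among other genes of mitotic entry and cytokinesis 17 of 19 rose (median 0.77), with Melk (1.10 ± 0.08) and Lin9 highest and Lin37 and Lin54 lowest. Ensa (-0.12, edgeR adjusted p = 0.0513) and Lin52 did not pass.

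The lists of other APC/C genes, cohesin and condensin II had smaller median changes than the mitosis lists above, a difference that was not tested. Their counts stand beside 30.6% of all tested genes that rose. Of the 15 other APC/C genes, 9 rose and 6 did not pass (Anapc4, Anapc7, Anapc10, Anapc13, Cdc16 and Cdc26), and the median was 0.27. The highest were Fbxo5 (0.99 ± 0.11), the APC/C inhibitor Emi1, and Ube2s (0.86 ± 0.08), a ubiquitin-conjugating enzyme of the complex, and the lowest past the threshold were Fzr1 (0.26 ± 0.05) and Anapc2 (0.27 ± 0.05). Of the 14 genes of cohesin, the ring that joins sister chromatids, 9 rose and 5 did not pass (Stag2, Wapal, Nipbl, Mau2 and Esco1), with a median of 0.41. Esco2 (1.11 ± 0.12) and Cdca5 (1.02 ± 0.09), which establish and guard cohesion, were highest, and Pds5a (0.38 ± 0.06) and Pds5b (0.39 ± 0.05) lowest among those that passed. In condensin II, Ncapg2 (1.13 ± 0.10) and Ncapd3 (0.53 ± 0.05) rose while Ncaph2 (0.11 ± 0.05, adjusted p = 0.0826) did not pass.

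The change was not limited to genes of mitosis. Of 40 DNA replication genes, 37 rose and 3 fell, with a median of 0.76. The highest were Mcm10 and Mcm5 (both 1.12), parts of the replication fork machinery, and Prim2 (-0.27 ± 0.08) and Orc5 (-0.22 ± 0.06) were the lowest. The G1 cyclins, their kinases and inhibitors showed no common direction: of 14 tested, 6 rose, 5 fell and 3 did not pass, with a median of -0.07. Of all tested genes 30.6% rose and 31.3% fell, so the G1 counts alone set that list little apart from the background. Cdkn1a (p21) fell from 463 ± 89.6 to 232 ± 28.7 CPM (SD; -0.99 ± 0.14 on the log2 scale) and Cdk6 fell by 0.59 on the log2 scale. Cdkn2c (p18) rose by 1.25 ± 0.11, and Cdkn2a rose too, from a mean of 0.0696 CPM in DMSO, which is under the level of 3 reads, to 0.638 CPM. These lists were chosen with earlier results of these data known, and the differences between lists were not tested.

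**Figure D4:**
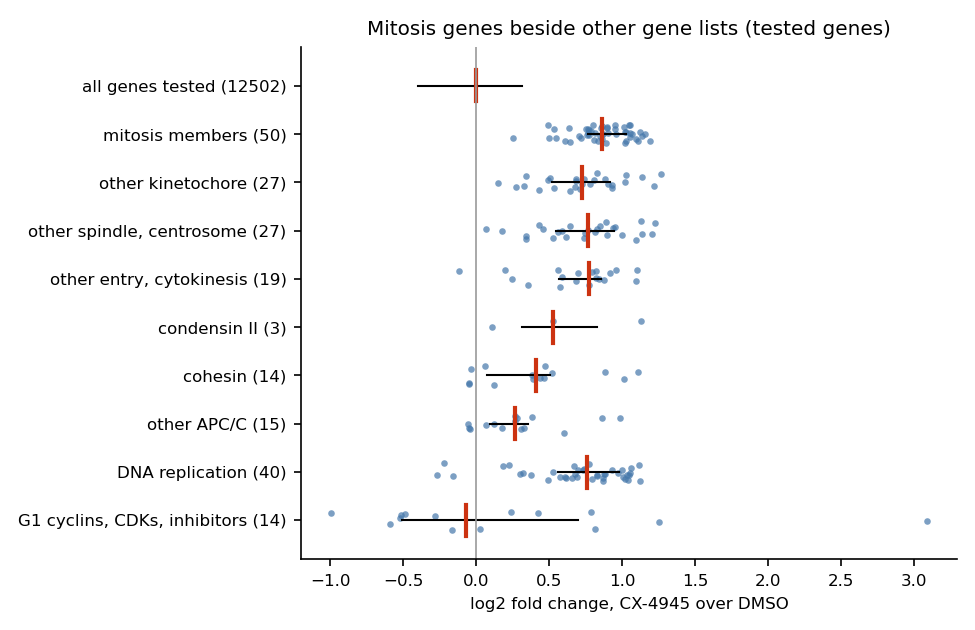
Log2 fold change of CX-4945 over DMSO for the 50 mitosis genes and for other gene lists, with the number of tested genes in brackets. Points are genes, black lines run from the lower to the upper quartile and red bars are medians; for all tested genes only the line and bar are drawn. The mitosis genes centre on 0.86, DNA replication on 0.76, cohesin on 0.41, other APC/C genes on 0.27 and the G1 list on -0.07, with Cdkn2a alone at 3.09.

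The labelled cell type was checked against its markers. The 7 markers listed for CD4 T cells summed to 2987 to 3189 CPM in DMSO and to 2079 to 2137 CPM with CX-4945, and 5 fell, Trat1 rose and Lck did not pass. Apart from Cd4 these genes are shared with other T cells, so their sum does not separate CD4 from CD8 T cells. Cd4 itself fell from a mean of 697 to 346 CPM (-1.01 on the log2 scale). Marker sums of other cell types were low in both groups: 19.9 to 28.0 and 14.2 to 23.1 CPM for CD8 T cells, 9.73 to 14.2 and 9.13 to 9.96 CPM for B cells, and 7.48 to 9.52 and 9.81 to 12.3 CPM for NK cells. Macrophage markers summed to 3.52 to 12.4 and 8.61 to 24.0 CPM, dendritic cell markers to 7.76 to 8.77 and 4.34 to 7.47 CPM, and neutrophil markers to 0.0424 to 0.585 and 0.299 to 0.605 CPM. Among the tested markers of these other types, 1 of 2 for CD8 T cells and 1 of 4 for dendritic cells fell, the 1 for NK cells rose, and none of 4 for B cells or 3 for macrophages passed. Beside these counts, 30.6% of all tested genes rose and 31.3% fell. The part of these marker changes in the rise of the mitosis genes was not tested.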

How the data were processed

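Gene-level values of 6 RNA-seq libraries were analysed, 3 per group. Trizol-extracted total RNA was made into Illumina libraries by a commercial provider, per the labels' protocols. The submitters' processing notes name mm10 as the build. Aligner, annotation release and strand setting: not given in the sources used here.

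Per the file headers, the deposited table gives raw counts of exon reads placed at a single locus, which were used for every test. It also gives the authors' mean per group, whose header names no unit and which was taken here as RPKM. Another 101 per-library value columns, total exon, intron and junction reads among them, were not used here. Columns name the group but not the replicate numbers of the labels, so no samples were paired. No library was a duplicate (chi-square over degrees of freedom 3.87 to 27.5 between libraries of a group).

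The counts were filtered (filterByExpr, minimum count 10, minimum total 15), scaled by TMM (factors 0.971 to 1.02) and tested with edgeR 4.0.16 in R 4.3.3, with Benjamini-Hochberg adjustment over 12502 genes. The SE of a log2 fold change was computed from its F statistic. The upper limit for a gene with 0 reads, 3 reads, equals 0.112 to 0.133 CPM and covers counting error only. DESeq2 1.42.0 and limma 3.58.1 (voom) were alternatives. Scripts were tested on simulated data. Gene starts, counted from 0 in the table, had 1 added.

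Every library's value is given for the member with the highest level, the largest and the smallest change in each role, and for members chosen after their values were seen (Cdk1). Of each other list, the 2 highest and 2 lowest changes past the threshold are named. The members and lists were chosen with earlier results of these data known. Start windows came from RefSeq (GRCm38.p6), matched by symbol. One further marker list is not reported here.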

Additional observations from a re-analysis of the deposited data

How the results depend on the processing

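All 50 mitosis genes rose under every scaling tried, with limma-voom and with at least 5 CPM required in 3 libraries. With DESeq2 and with no filter on low counts 49 rose, Pttg1 being the one lost. Over all genes, 3754 to 4439 were higher under the alternative scalings, 3830 with limma-voom and 3228 with at least 5 CPM. With DESeq2 3604 of all genes were higher, and with no filter 3778. Of 700 alternative values of single members, 683 kept direction and call, 17 kept direction but lost the call and 0 reversed. Against a minimum fold of 1.5, 40 members passed, and over all genes 661 were higher and 1202 lower, since that test asks for a larger change. Leaving out members that overlap another gene, an alternative chosen after seeing the data, kept 29 genes. All 29 rose, which was fixed in advance because all 50 members had risen. With library size alone the members' median log2 fold change was 0.93, and that of all genes 0.06. When each library was left out in turn, 49 to 50 members rose, 0 fell, the median was 0.84 to 0.93 (highest without DMSO library 3), and over all genes 3107 to 3954 rose and 3212 to 4039 fell. No paired analysis was possible because the columns carry no replicate number of the labels. The planned results on intron reads and on total exon reads were left out and are not reported, since the columns that name only a group were limited to 1 kind of read. Pttg1, at 12.4 to 16.5 CPM, rests on a small difference between groups.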
